A study of Mus musculus with 3 samples.

Results

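Among the cells of 1 mouse cochlea library at postnatal day 7 (P7), 478 cells in which the transcript of Emilin2 made up at least 0.3% of all unique molecular identifiers (UMIs, 1 per captured RNA molecule) were described. Emilin2 encodes a glycoprotein of the EMILIN family, which sits at elastic fibres and other extracellular matrix. The cells were kept from barcodes with at least 500 detected genes, at most 20% mitochondrial UMIs and no UMI of Epcam (epithelium), Cdh5 (endothelium), Sox10 (glia) or Ptprc (blood cells). Of 8141 P7 barcodes, 595 had too few genes, 284 of the rest had too many mitochondrial UMIs and 2671 more had a UMI of an exclusion gene, which left 4591 cells. The Emilin2-rich cells were 10.4% of these (exact 95% binomial interval 9.54 to 11.3%, counting error only). They were set against 3608 other cells that passed the same filter and had at least 3 UMIs of the collagen gene Col1a2, here called the other Col1a2 cells, and 505 cells were in neither group. The series holds 15272 barcodes in all.

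Whole cochleae of wildtype C57BL/6J mice were dissociated with papain and thermolysin, sorted to remove debris and captured with a droplet kit that reads the 3' end of transcripts. P7 gave 1 library with 93829443 UMIs, and embryonic day 15 (E15) gave 2 libraries with 46530036 and 44304364 UMIs. The labels do not say how many animals a library holds, and age cannot be told apart from the library or from the counting software, whose version in the file header was 3.1.0 at P7 and 6.1.2 at E15. P7 shared 6 cell barcodes with each E15 library, and the E15 libraries shared 3. Emilin2 itself chose the cells and all other genes were counted in the same cells, so every difference at P7 is a description without a test, and its interval covers counting error only.

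The spiral organ of hearing rests on the basilar membrane, whose lower face, towards the fluid-filled scala tympani, is covered by mesenchymal cells called tympanic border cells. In the newborn mouse these cells are known to respond to Wnt signals, which act through beta-catenin and switch on their own inhibitors, among them Axin2, Nkd1 and Notum. The cochlear mesenchyme around them includes fibrocytes of the spiral ligament, which recycle potassium, fibroblasts, and the cells of the surrounding cartilage and bone. Emilin2, Rarres1 and Pou3f4 were taken as markers of a tympanic border type. Emilin2 was the rule, Rarres1 was 32.3-fold higher than in the other Col1a2 cells, and Pou3f4, a transcription factor of the whole otic mesenchyme, stood at 298 CPM (the gene's summed UMIs scaled to a common total) against 400 CPM. A single marker beyond the rule therefore set them apart, so they are called by their rule, the Emilin2-rich cells.

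The Emilin2 share had a median of 0.591% in the Emilin2-rich cells, with 0.380% at the 10th and 0.904% at the 90th percentile, 0.3% at the lowest and 3.56% at the highest. This was a median of 91.5 Emilin2 UMIs per cell (3 to 579), and 14 cells passed the rule with fewer than 10. Just inside the threshold, from 0.3 to 0.35%, lay 32 cells with a median of 42 Emilin2 UMIs, and just outside, from 0.25 to 0.3%, lay 23 cells with a median of 36. In the histogram of Emilin2 shares the cells formed a separate peak above the threshold. The median depth was 15618 UMIs and 3923 genes in the Emilin2-rich cells and 11182 UMIs and 3402 genes in the other Col1a2 cells, and mitochondrial UMIs were 3.96% and 4.15%. Nearly all Emilin2-rich cells, 469 of 478, had at least 3 Col1a2 UMIs themselves. The exclusion genes removed 95 further cells with Emilin2 at the threshold, of which 75 carried a single UMI over the 4 genes (51 cells with Cdh5, 26 with Epcam, 24 with Sox10 and 3 with Ptprc).

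**Figure D1:**
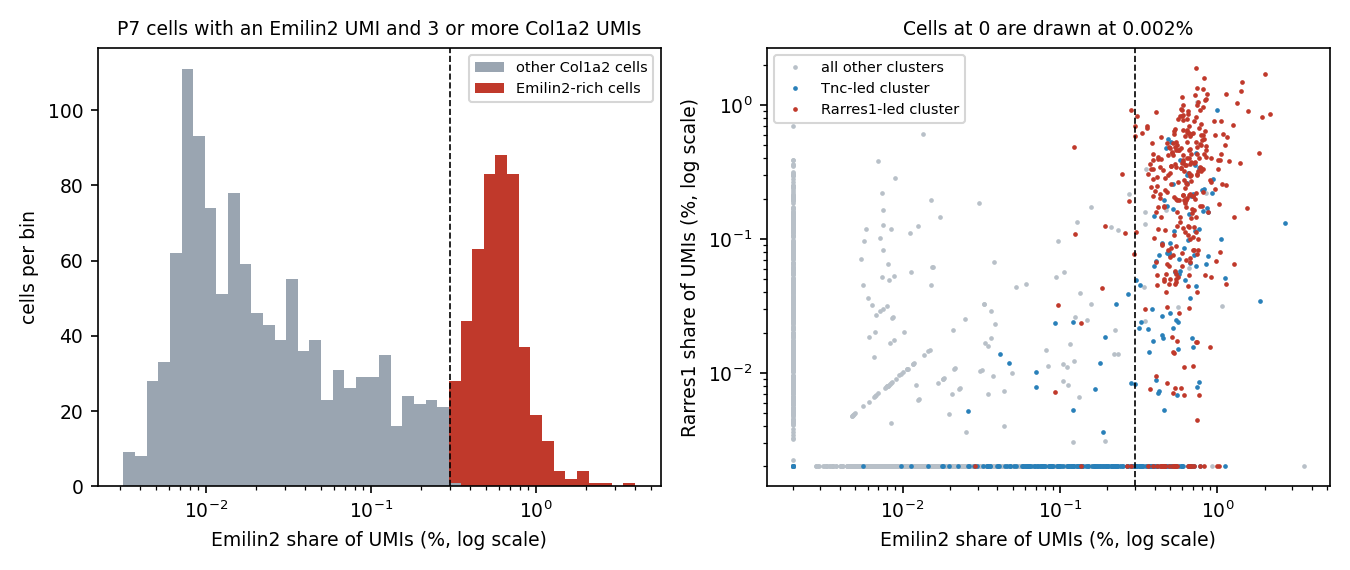
Left, number of P7 cells with at least 1 Emilin2 UMI and at least 3 Col1a2 UMIs by Emilin2 share of all UMIs (percent, log scale), the Emilin2-rich cells in red, with the threshold of 0.3% dashed. Right, Rarres1 share against Emilin2 share (both percent, log scale) in each of the 4591 P7 cells that passed the filter, coloured by cluster, with cells at 0 drawn at 0.002%. The Rarres1-led cluster (red) lies mostly right of the threshold, while the Tnc-led cluster (blue) runs across it.

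The upstream sequences of 6 genes that carry the description are given first: Emilin2, which defines the cells, Rarres1 and Col13a1, which were among the most enriched, Pycr1, a neighbour of Notum, and Mmp11 with Chchd10, which start close to each other. Each is the 250 bases before an annotated start site in RefSeq (GRCm38.p6), 5′ to 3′ on the gene's strand, with matches in capitals to GGGCGG, the core bound by Sp1-type factors, or to a core of the TCF/LEF partners of beta-catenin. The spellings of that core were CTTTGAA, then the variant CTTTGAT, then the variant CTTTGTA, and last the variant CTTTGTT. Both strands were searched, so the reverse complements, such as CCGCCC for Sp1-type factors, are matches too.
Emilin2 (chr17:71311012-71311261, minus strand): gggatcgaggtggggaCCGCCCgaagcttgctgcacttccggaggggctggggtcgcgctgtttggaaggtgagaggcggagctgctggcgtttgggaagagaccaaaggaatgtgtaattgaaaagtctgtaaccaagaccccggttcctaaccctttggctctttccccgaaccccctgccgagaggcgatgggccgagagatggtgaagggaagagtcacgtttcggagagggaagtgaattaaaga
Rarres1 (chr3:67515524-67515773, minus strand): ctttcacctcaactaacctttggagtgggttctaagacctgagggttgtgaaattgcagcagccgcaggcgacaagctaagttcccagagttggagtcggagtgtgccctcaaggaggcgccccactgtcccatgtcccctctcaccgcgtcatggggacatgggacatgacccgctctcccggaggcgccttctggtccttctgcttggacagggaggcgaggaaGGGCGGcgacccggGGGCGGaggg
Col13a1 (chr10:61979109-61979358, minus strand): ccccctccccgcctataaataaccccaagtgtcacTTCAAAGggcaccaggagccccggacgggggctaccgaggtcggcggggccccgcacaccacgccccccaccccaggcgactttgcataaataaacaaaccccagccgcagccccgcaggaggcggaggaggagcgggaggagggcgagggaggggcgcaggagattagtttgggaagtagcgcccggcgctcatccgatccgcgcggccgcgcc
Pycr1 (chr11:120643749-120643998, minus strand): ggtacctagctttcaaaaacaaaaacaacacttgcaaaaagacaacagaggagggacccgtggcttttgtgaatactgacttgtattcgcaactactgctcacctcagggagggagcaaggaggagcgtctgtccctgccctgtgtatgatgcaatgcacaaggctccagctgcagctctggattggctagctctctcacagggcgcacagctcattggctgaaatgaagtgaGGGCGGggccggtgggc
Mmp11 (chr10:75932503-75932752, minus strand): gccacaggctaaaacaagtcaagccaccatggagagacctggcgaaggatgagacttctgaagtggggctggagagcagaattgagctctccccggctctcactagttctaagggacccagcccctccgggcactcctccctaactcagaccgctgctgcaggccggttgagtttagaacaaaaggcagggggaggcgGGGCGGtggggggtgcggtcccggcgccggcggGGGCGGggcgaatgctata
Chchd10 (chr10:75932880-75933129, plus strand): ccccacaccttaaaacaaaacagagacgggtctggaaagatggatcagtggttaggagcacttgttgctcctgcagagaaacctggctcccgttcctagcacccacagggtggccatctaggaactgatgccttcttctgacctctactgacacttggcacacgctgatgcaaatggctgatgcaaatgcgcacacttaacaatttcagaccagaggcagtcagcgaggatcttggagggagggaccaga
The windows shown of Emilin2, Rarres1, Pycr1 and Mmp11 held GGGCGG and that of Col13a1 held a TCF/LEF core. The 250 bases of Chchd10 held neither, nor did those before a second Emilin2 start site (chr17:71311557-71311806), which are not shown. In GENCODE M21 the windows shown held no exonic base, except for 21 in that of Pycr1.

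At a level of at least 50 CPM in either group, 3310 genes were compared, and their median log2 ratio was -0.07. Of these, 194 genes (5.86%) were at least 2-fold higher and 311 (9.4%) at least 2-fold lower in the Emilin2-rich cells. The ratio was at least 4 for 54 of the higher and 155 of the lower genes. Of the 193 higher genes that E15 also lists, 145 had an E15 mean below 50 CPM in the Col1a2 cells of those libraries. By their choice these genes reached 50 CPM in the Emilin2-rich cells, and the share over all genes was not taken. The count therefore does not compare the ages. In the plot of levels, the genes stretch further below the line of equal level than above it.

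**Figure D2:**
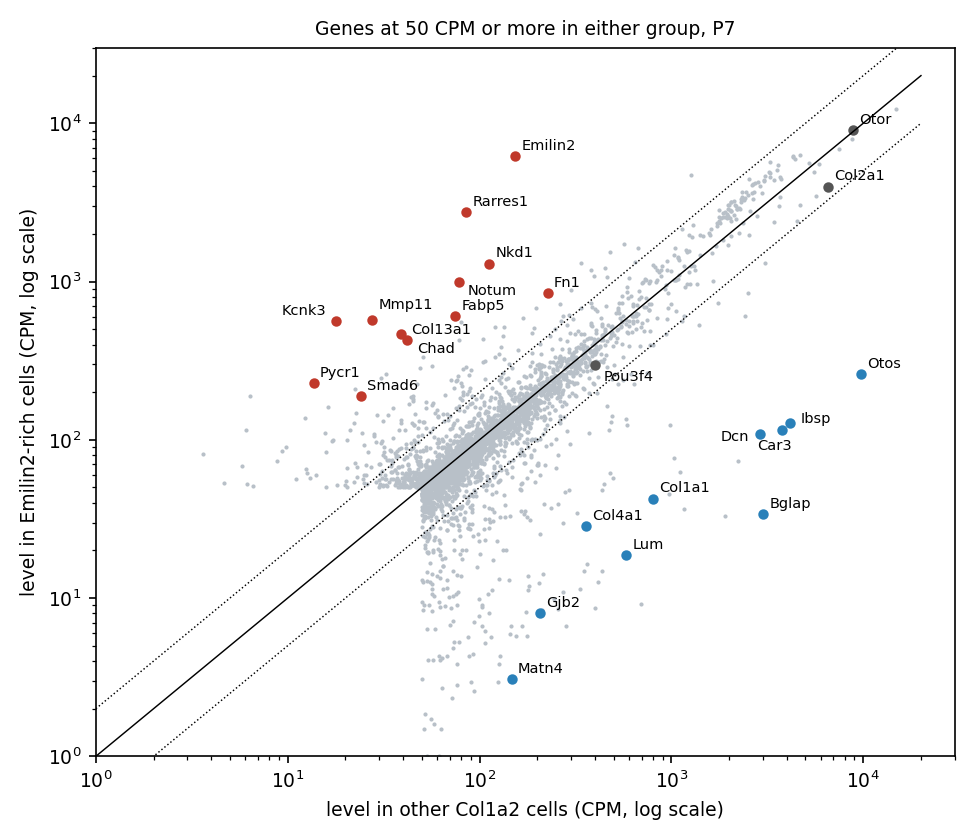
Level of each gene in the Emilin2-rich cells against the other Col1a2 cells at P7 (CPM of summed UMIs, log scales). Grey points are genes at 50 CPM or more in either group, the solid line marks equal levels, the dotted lines a ratio of 2 either way, and named genes are red where at least 2-fold higher, blue where at least 2-fold lower and dark grey otherwise. Rarres1 lies at 2755 against 85.4 CPM and Otos at 259 against 9693 CPM.

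Rarres1, a transmembrane protein first described as a retinoid-responsive gene, reached 2755 CPM in the Emilin2-rich cells and 85.4 CPM in the other Col1a2 cells, a ratio of 32.3 (31.1 to 33.4). It varied widely among the Emilin2-rich cells, with 1452 CPM in the median cell, 6518 CPM at the 90th percentile and no UMI in 94 of the 478. The cells without it were shallower, with a median of 12765 against 16470 UMIs, and had a median Emilin2 share of 0.463% against 0.621%. Of the retinoid genes listed, Aldh1a1, which makes retinoic acid, was 2.69-fold higher (131 against 48.6 CPM) and Rarres2 2.38-fold lower, and these with Rarres1 were 3 of the 4 at level. The gene spans chr3:67478972-67515523 on the minus strand of GRCm38.

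Kcnk3, an acid-sensitive potassium leak channel, was higher in the Emilin2-rich cells, at 561 against 17.8 CPM (31.6-fold, 29.2 to 34.2). A UMI was seen in 95% of the Emilin2-rich cells and in 7.01% of the other Col1a2 cells. Thinned to 5000 UMIs per cell, which left out 41 shallower Emilin2-rich and 427 other cells, the shares were 86.5% and 5.09%. Among cells of the same library that should lack it, 1.26% of 159 macrophages (C1qa of at least 5 UMIs, median 7601 UMIs) and 1.08% of 279 endothelial cells (Cldn5 of at least 5 UMIs, median 9580 UMIs) had a UMI. Its share in the Emilin2-rich cells thus lay far above that of free RNA. Cells just below the rule carried it too, at 180 CPM from 0.1 to 0.2% Emilin2 and 318 CPM from 0.2 to 0.3%.

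Inhibitors of Wnt signalling were among the genes of highest ratio. Notum, a secreted enzyme that strips Wnt proteins of the lipid they need, was at 987 against 78.1 CPM (12.6-fold, 12.1 to 13.2) and was seen in 473 of the 478 cells, with 402 CPM at the 10th percentile, 908 in the median cell and 1882 at the 90th. Nkd1, which binds Dishevelled and blunts the signal inside the cell, was at 1295 against 112 CPM (11.6-fold, 11.2 to 12) and was seen in 98.1% of cells. Wif1, which binds Wnt proteins outside the cell, was 2.91-fold higher at 313 against 107 CPM. These were 3 of the 6 Wnt inhibitors and targets at level. The secreted inhibitor Sfrp4 was 3.32-fold lower, and Axin2 (67.9 against 34.5 CPM, 1.97-fold) and Lef1 (186 against 158 CPM) stayed inside 2-fold. The list's median log2 ratio was 1.26, against -0.07 over all genes. Genes of the list below 50 CPM in both groups did not share a direction. Sp5 was at 27.5 against 7.85 CPM and Rnf43 at 38.9 against 18 CPM. Znrf3 was at 13.9 against 13.7 CPM, Dkk1 at 2.22 against 8.83 CPM and Ccnd1 at 6.42 against 36.3 CPM.

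On the side of ligands and receptors, 10 of 35 listed genes were at level, 1 higher and 4 lower. The receptor gene Fzd10 was 2.54-fold higher at 79.6 against 31.3 CPM. Fzd1 was 2.11-fold and Fzd9 11.7-fold lower. Lgr4, a receptor for R-spondins, was 3.02-fold lower, and Rspo3, an R-spondin that amplifies Wnt signals, 32.5-fold lower at 1.73 against 56.2 CPM. The ligand Wnt5a was at 277 against 383 CPM. Below 50 CPM in both groups, Rspo1 was at 28.3 against 15.6 CPM, Lgr5 at 7.77 against 3.8 CPM and Lgr6 at 8.39 against 7.54 CPM, so the R-spondins and their receptors did not share a direction.

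Genes of signalling by bone morphogenetic proteins (BMPs) and TGF-beta differed in both directions. The inhibitory Smads, which block the signal inside the cell, were at 188 against 24.1 CPM for Smad6 (7.80-fold, 7.2 to 8.46) and at 238 against 70.7 CPM for Smad7 (3.36-fold). Bambi, a receptor that lacks the signalling domain, was at 889 against 299 CPM (2.98-fold), and the BMP receptor Bmpr2 was 2.27-fold higher. Of the 13 genes of this list at level, these 4 were higher and 4 were lower: the ligands Bmp5 (2.47-fold) and Gdf10 (6.1-fold), the activin trap Fst (42.6-fold, with 12 UMIs in the Emilin2-rich cells) and Fstl1 (2.01-fold). Id1 and Id4, transcriptional inhibitors that BMPs are known to induce, were higher at 1633 against 673 CPM (2.43-fold) and 52.7 against 6.12 CPM (8.61-fold), while Id2 (2275 against 1293 CPM) and Id3 (2804 against 2566 CPM) lay inside 2-fold. The median log2 ratio of the BMP and TGF-beta list was 0.19.

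The other genes of highest ratio covered several functions. Ntn4, a netrin of basement membranes, was at 244 against 30.8 CPM (7.93-fold). Mmp11, a matrix metalloproteinase, was at 575 against 27.7 CPM (20.8-fold). Ratios between 7.69 and 11.7 were found for the ubiquitin ligases Rnf182 and Trim16, the homeobox factor Cux2, the ribosomal RNA processing factor Rcl1, the phosphate transporter Slc20a1, the amino acid transporter Slc16a10, the fatty acid-binding protein Fabp5 (605 against 74.7 CPM), the actin-severing protein Scin and Proser2. Derl3, a factor for export of misfolded proteins from the endoplasmic reticulum, was 22.7-fold higher at 81.9 CPM. Among guidance receptors Epha3 was 4.86-fold and Epha4 2.27-fold higher, and Cav1, a coat protein of caveolae, was 5.45-fold higher.

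In each list of extracellular matrix genes, more genes were lower than higher, against 9.4% lower and 5.86% higher over all genes. The lower ones were not always the majority: of 13 matrix proteases and inhibitors at level, 4 were lower, 1 was higher and 8 were neither. Of 18 collagen genes at level, Col13a1, a transmembrane collagen, was higher (464 against 38.8 CPM, 12-fold), 10 were lower and 7 were neither. Col1a1 was at 42.4 against 804 CPM (18.9-fold lower) and Col3a1 at 76.7 against 1037 CPM (13.5-fold lower). Of the cartilage-type collagens, Col9a3 was at 1303 against 3091 CPM and called lower, and the other members at level lay inside 2-fold. Among these Col2a1 was at 3973 against 6552 CPM, Col9a1 at 2404 against 4501 CPM and Col11a1 at 1261 against 1265 CPM. The small leucine-rich proteoglycans split in the same way, with Chad, a cell-binding protein of cartilage, 10.2-fold higher at 427 against 42.0 CPM and all 6 others at level lower, Dcn by 26.9-fold and Lum by 31.2-fold.

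Basement membrane and adhesive proteins showed a similar switch. Of 13 basement membrane genes at level, Lamc3 was 4.53-fold higher and 6 were lower, among them Col4a1 (28.5 against 357 CPM, 12.5-fold), Col4a2 (9.38-fold) and Nid1 (10.3-fold), while Col4a3 (73.0 against 49.0 CPM) and Col4a4 (51.8 against 47.2 CPM) were neither. Fibronectin, Fn1, was 3.70-fold higher at 840 against 227 CPM and Tnc 3.12-fold higher, and 9 of the 13 adhesive glycoproteins at level were lower. Tnc was not a trait of all the Emilin2-rich cells, as 26.8% of them had a UMI. In the 321 of the Rarres1-led cluster described below it was at 5.88 CPM, against 30.8 CPM in the other Col1a2 cells. Its ratio was 1.94 with the Emilin2 threshold at 0.5%. Within the family of the defining gene, Emilin1 was at 62.8 against 91.1 CPM, and Emilin3 and Mmrn2 were below 10 CPM in both groups. None of 11 elastic fibre and microfibril genes at level was higher, and 4 were lower: Fbln2, Fbn1, Fbn2 and Mfap4.

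Most markers of the neighbouring mesenchyme were lower in the Emilin2-rich cells. Of the 19 fibrocyte genes at level 13 were lower and 1, Cav1, was higher, against 9.4% lower and 5.86% higher over all genes. Coch, among the 13, was at 465 against 941 CPM, with a ratio of 0.695 when exclusion-gene cells were kept. Otos, a secreted protein of spiral ligament fibrocytes, was at 259 against 9693 CPM (37.4-fold lower), and it was at 50060 CPM in the 577 other Col1a2 cells with Otos of at least 1% of UMIs. Car3 was 32.5-fold, the gap junction gene Gjb2 25.7-fold and Gjb6 20.4-fold lower. Otor, another secreted protein of the cochlear mesenchyme, was in contrast at 9007 against 8875 CPM, but the comparison cells were a mix. It was at 28960 CPM in the same 577 Otos-rich cells. In 861 others, with Otos below 1% and Dcn of at least 0.3% of UMIs, it was at 2239 CPM. All 12 osteoblast genes at level were lower, Bglap by 89.0-fold and Ibsp by 32.6-fold. The other genes of lowest ratio were Bglap2, Matn4, Phex, Omd, Bricd5, Cemip, Ucma, Trf and Thbs1, between 30.6-fold and 57.8-fold lower.

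Part of the low counts lay at the level of free RNA. An Otos UMI was seen in 58.2% of the Emilin2-rich cells, against 63.5% of macrophages and 67.0% of endothelial cells. Ibsp was seen in 41.2% against 35.8% and 32.3%, Dcn in 27.0% against 30.8% and 27.6%, and the globin Hbb-bs in 41.6% against 42.8% and 43.0%. These shares are not read as expression. Much of the rest came from few cells: 17 Emilin2-rich cells with a median of 27008 UMIs held 77.4% of all Otos UMIs, 76.8% of Dcn and 49.9% of Ibsp in the group, and 12 of the 17 had doublet scores among the highest 422 of 7262. Without them Otos stood at 61.5 CPM, Dcn at 26.5 CPM and Notum at 1004 CPM.

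Markers of other cell types differed in level from list to list. Of 12 mesothelium markers 7 had no UMI, among them Wt1, Msln, Upk3b and Lrrn4, and the whole list summed to 4.56 CPM. The epithelium list summed to 48.1 CPM (53.2 in the other Col1a2 cells), of which Cdh1 gave 28.5 CPM, and the macrophage list to 29.1 CPM (44.2). A Cdh1 UMI was seen in 29.3% of the Emilin2-rich cells, 13.4% of the other Col1a2 cells, 4.40% of macrophages and 2.51% of endothelial cells. The hair cell list summed to 205 CPM (140), of which Myo6 gave 185 CPM. The neuron list summed to 73.3 CPM (123) and the melanocyte list to 45.3 CPM (48.4). The endothelium list summed to 768 CPM (389), of which Emcn gave 681 CPM, and Kdr (25.9 against 5.29 CPM) and Flt1 (22.5 against 4.03 CPM) were above the other cells while Cldn5 and Pecam1 were at 2.22 and 1.60 CPM. The glia list summed to 527 CPM (1608), of which Pmp22 gave 220 CPM (194) and S100b, also on the fibrocyte list, 123 CPM (989). The red blood cell list summed to 1553 CPM (1049), and its part in any result was not tested. Cycling was rare, with Mki67 at 1.11 CPM and Top2a at 2.59 CPM.

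Of the 23 otic mesenchyme transcription factors at level, 4 were higher, 6 were lower and 13 lay inside 2-fold, against 5.86% higher and 9.4% lower over all genes. The higher ones were Id1, Klf4 (1325 against 646 CPM), Foxf2 (100.2 against 45.4 CPM) and Tbx1 (132 against 65.5 CPM). The 6 lower ones were Runx2, the master factor of bone (15.4-fold), Zfhx4, Foxp2, Zfhx3, the cartilage factor Sox9 (2.51-fold) and Tbx18 (101 against 250 CPM, 2.48-fold). Twist1 and Prrx2 did not reach 2-fold. Of 15 immediate early genes at level, Atf3, Dusp1 and Nr4a1 were higher, Cyr61 was lower and 11 were neither. Since dissociation is known to induce such genes, and Fos was at 4409 against 3433 CPM, their part in the differences was not tested.

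The enrichment of single genes began at different Emilin2 levels. Among P7 cells with at least 3 Col1a2 UMIs, those with an Emilin2 share of 0.05 to 0.1%, well below the rule, already had Notum at 362 CPM and Nkd1 at 499 CPM, against 31.0 and 38.6 CPM in cells without an Emilin2 UMI. Rarres1 was at 92.9 CPM in cells without an Emilin2 UMI, 49.1 CPM in cells with one but below 0.05%, and 24.3 CPM in the 120 cells from 0.05 to 0.1%. It was at 88.7 CPM from 0.1 to 0.2%, 488 CPM from 0.2 to 0.3%, 1336 CPM from 0.3 to 0.4% and 5417 CPM at 0.8% or more. Tnc was at 9.57 CPM without an Emilin2 UMI, 183 CPM from 0.05 to 0.1% and 207 CPM from 0.2 to 0.3%, and then lower, down to 53.2 CPM at 0.6 to 0.8%, with 96.5 CPM in the 75 cells above. Otos was at 1597 CPM in the 63 cells from 0.3 to 0.4% and at most 93.0 CPM in each band above. Notum and Nkd1 thus marked a wider set of cells than the rule took.

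**Figure D3:**
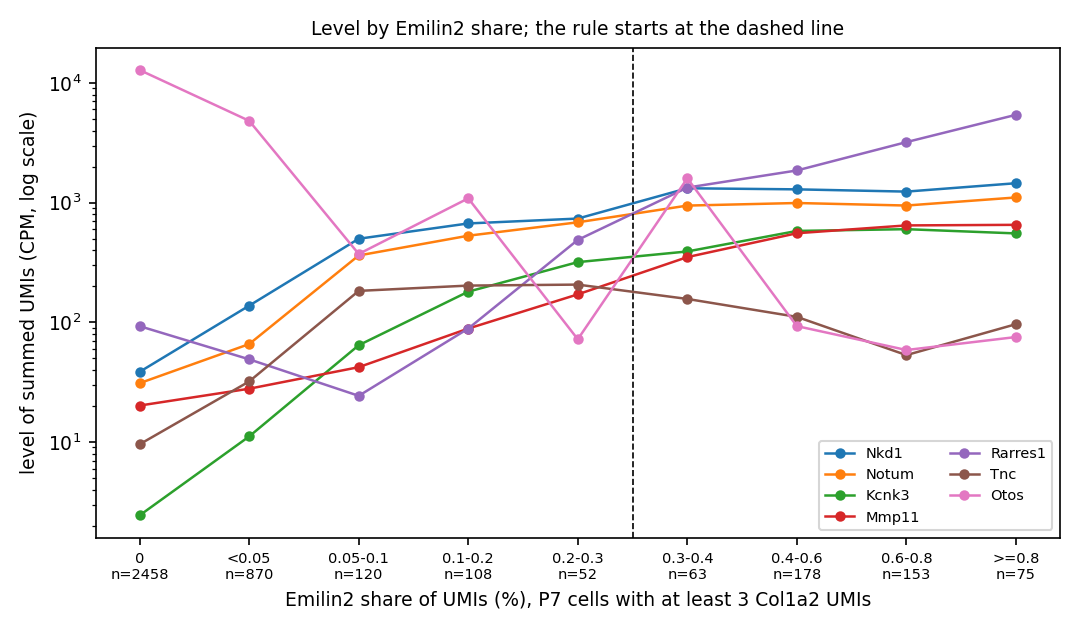
Level of 7 genes (CPM of summed UMIs, log scale) in P7 cells with at least 3 Col1a2 UMIs, grouped by Emilin2 share of all UMIs in percent, with the number of cells under each group and the dashed line at the rule. Notum and Nkd1 are at 362 and 499 CPM already from 0.05 to 0.1%. Rarres1 is at 92.9 CPM without an Emilin2 UMI, 24.3 CPM from 0.05 to 0.1% and 5417 CPM in the highest group.

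The same was seen in clusters made without Emilin2. Among 22 clusters of the 4591 cells, 457 of the 478 Emilin2-rich cells (95.6%, 93.4 to 97.3%) fell into 2. The first, led by genes that included Rarres1, Kcnk3, Derl3 and Irf4, had 337 cells, of which 321 were Emilin2-rich. The second, led by Tnc, Hal, Npy, Npb and Cnr1, had 282 cells, of which 136 were Emilin2-rich and 146 were not. In these 146 cells the median Emilin2 share was 0.104%, against 0.511% in the 136 and 0.622% in the 321. Since these genes built the clusters, the values that follow describe them and test nothing.

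Of 3065 genes at level in the Emilin2-rich cells of the clusters, 94 were at least 2-fold higher in the Rarres1-led cluster and 75 in the Tnc-led one. The Rarres1-led cells had more of the cartilage-type matrix: Chad (581 against 20.9 CPM), Col9a1 (3094 against 299 CPM) and Col2a1 (4882 against 1307 CPM). Also higher there were the basement membrane collagens Col4a3 (95.1 against 9.96 CPM) and Col4a4 (68.5 against 7.47 CPM). So was Mgp, an inhibitor of calcification, at 943 against 139 CPM. Rarres1 was at 3468 against 928 CPM, Col13a1 at 597 against 117 CPM, and Ptgs2, which makes prostaglandins, at 149 against 8.46 CPM. The Tnc-led cells had more of Tnc, an anti-adhesive matrix protein (364 against 5.88 CPM, 61.9-fold), of the cannabinoid receptor Cnr1 (76.7 against 10.2 CPM) and of the elastic fibre proteins Fbln1 (89.6 against 18.5 CPM) and Ltbp4 (108 against 23.4 CPM). Among genes of the Wnt inhibitor and target list, Axin2 was at 117 against 52.8 CPM and Sp5 at 65.2 against 15.2 CPM, while Nkd1, at 2042 against 1056 CPM, and Notum did not reach 2-fold.

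Several genes were alike in both. Emilin2 was at 6472 CPM in the Rarres1-led and 5550 CPM in the Tnc-led Emilin2-rich cells, Pou3f4 at 289 and 320 CPM, Notum at 925 and 1205 CPM and Id1 at 1663 and 1598 CPM. The 146 Tnc-led cells below the rule resembled the Emilin2-rich ones of their cluster in Tnc (422 CPM), Axin2 (129 CPM), Sp5 (76.4 CPM) and Epha3 (260 against 269 CPM). They differed in Rarres1 (15.0 against 928 CPM) and Mmp11 (41.7 against 296 CPM). Nkd1 was in between, at 976 against 2042 CPM. Rarres1 and Mmp11 thus followed Emilin2 inside that cluster, and Tnc, Axin2 and Sp5 did not.

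**Figure D4:**
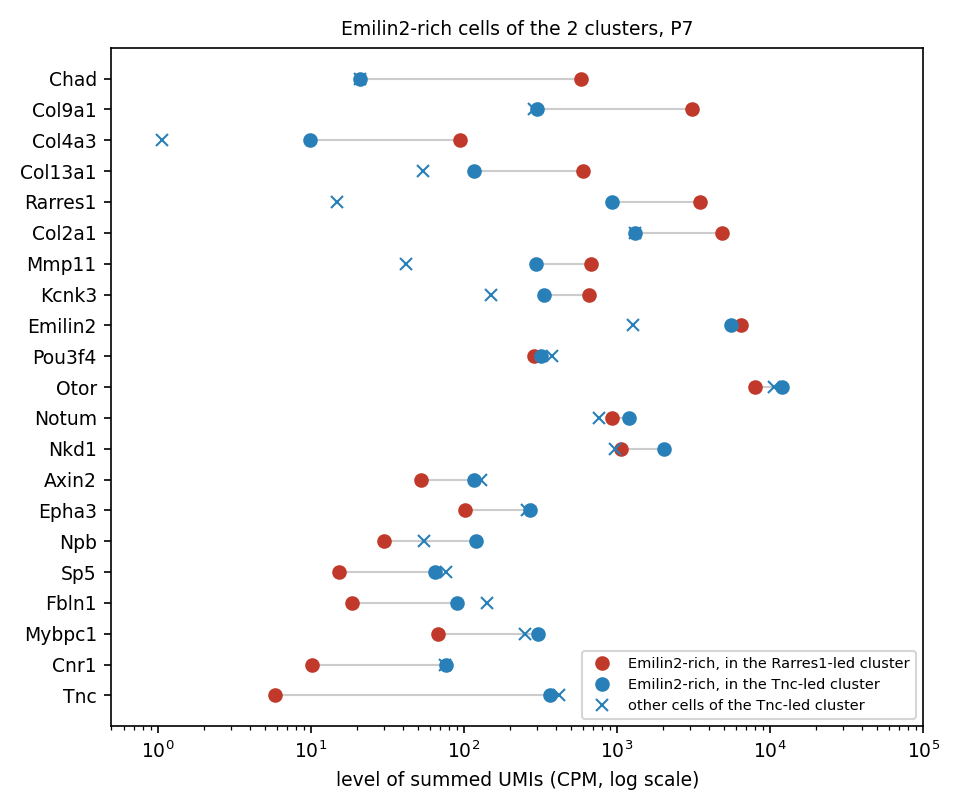
Level of 21 genes (CPM of summed UMIs, log scale) in the Emilin2-rich cells of the Rarres1-led cluster (red, 321 cells) and of the Tnc-led cluster (blue, 136 cells), with the 146 other cells of the Tnc-led cluster as crosses. Chad and Tnc lie farthest apart between the clusters, and Rarres1 separates the crosses from both.

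Split on their own, the Emilin2-rich cells formed 5 groups at resolution 0.5 and 9 at resolution 1, and the 5 are described. The group of 147 cells was led by Dapl1, Gstt3, Igfbp4, Col13a1 and Cdkn1c, and that of 127 cells by genes that included Tnc, Hal, Ntng1 and Mybpc1. A group of 109 cells led by Pgf, Col1a1, Ajap1, Slco1a4 and Cxcl16 had the most Rarres1, at 5537 CPM, and Chad at 946 CPM. It also held Hbb-bs at 3463 CPM, against 22.4 to 40.5 CPM in the other groups, and the part of this in its other values was not tested. A group of 78 cells led by Tnfaip6, Robo2, Spon2, Tle2 and Fam46a had the least Rarres1, at 321 CPM, and immediate early genes at a sum of 29338 CPM against 20120 to 25058 CPM in the others. The last group was the 17 cells of high UMI count described above, led by bone and fibroblast genes (Col14a1, Ifitm5, Bglap2, Dlx5 and Runx2).

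Enriched genes lay next to each other around Notum. Ordered along the chromosomes (GENCODE M21, GRCm38, with 28339 of 28692 genes placed), 11 consecutive genes at level were all at least 2-fold higher in the Emilin2-rich cells: Npb, Mafg, Pycr1, Notum, Notumos, Aspscr1, Stra13, Lrrc45, Rac3, Dcxr and Cbr2. They span chr11:120608477-120732114, which is 124 kb. Of the other runs of higher genes 129 had 1 gene, 24 had 2 and 2 had 3, and no run of lower genes was longer than 4. The run was noticed in these data and carries no test.

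The values along this stretch varied by gene. Pycr1, an enzyme of proline synthesis, was at 228 against 13.6 CPM (16.7-fold, 15.2 to 18.4) and Npb, a neuropeptide, at 53.5 against 4.65 CPM (11.5-fold). Rac3, a small GTPase, was at 335 against 51.0 CPM (6.58-fold), Cbr2, a carbonyl reductase, at 90.2 against 9.80 CPM (9.21-fold) and Aspscr1, a tether of the glucose transporter of fat and muscle, at 177 against 45.1 CPM (3.92-fold). The weakest were Stra13, at 242 against 107 CPM (2.26-fold), Lrrc45 (2.47-fold), the transcription factor Mafg (155 against 60.4 CPM, 2.56-fold) and the reductase Dcxr (2.86-fold). Notumos, an antisense transcript that overlaps Notum, was 19.0-fold higher, but whether counting used strand is not given in the sources used here, so its reads cannot be told apart from those of Notum. Within the stretch 6 more genes were below 50 CPM in both groups, among them Sirt7 (43.4 against 25 CPM) and Pcyt2 (48.0 against 28.8 CPM).

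The neighbours on both sides were close to equal. Anapc11 (1.26-fold) and Alyref (1.24-fold) stood just before Npb, and Gps1 (92.8 against 98.8 CPM) was the next gene at level after Cbr2. Further out, Fasn was 2.13-fold higher. All 11 genes were at least 2-fold higher both in the Rarres1-led and in the Tnc-led Emilin2-rich cells than in the other Col1a2 cells outside the clusters. The 11 were picked on the Emilin2-rich cells, of which these clusters hold 457 of 478, so this outcome was largely fixed. In the 146 Tnc-led cells below the rule, 10 of the 11 were at least 2-fold higher than in the same outside cells. Dcxr was the exception at 1.61-fold. The share over all genes in these 146 cells was not taken, and Npb was a leading gene of their cluster. The count therefore only describes these cells. Notum was at 762 against 45.9 CPM there and Rac3 at 254 against 41.9 CPM. At E15 Notum was at 6.63 and 5.41 CPM, Pycr1 at 9.79 and 9.24 CPM and Cbr2 at 1.2 and 0.901 CPM in the Col1a2 cells of the libraries.

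**Figure D5:**
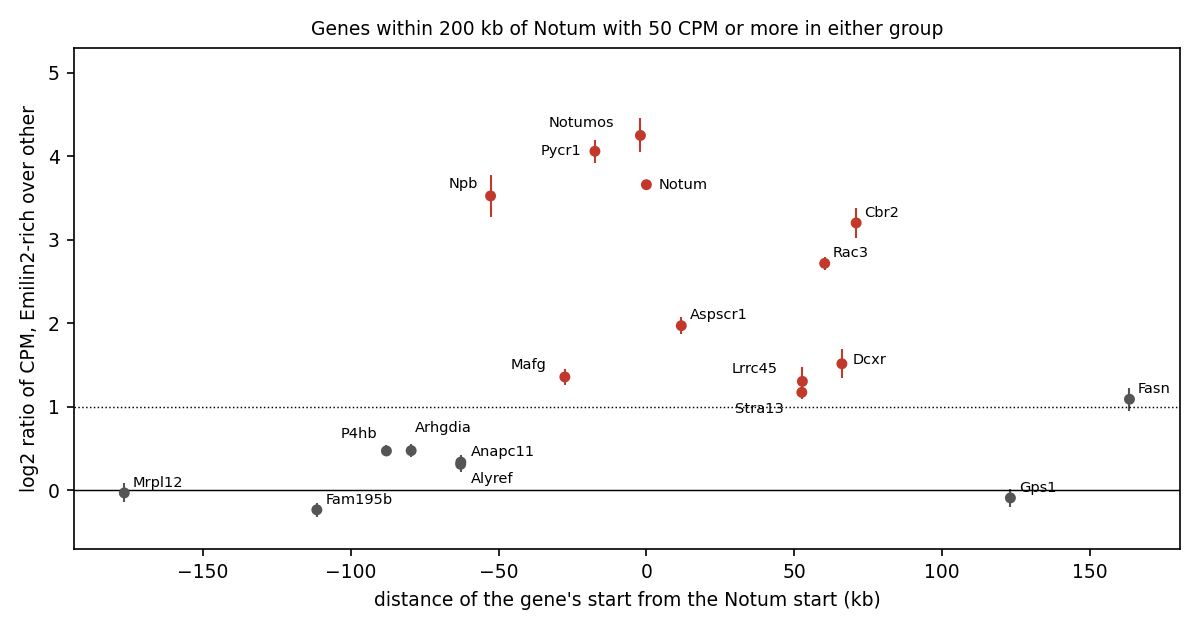
Log2 ratio of CPM (Emilin2-rich over other Col1a2 cells, P7) of the 19 genes within 200 kb of Notum at 50 CPM or more in either group, against the distance of their start from that of Notum in kb. Bars are 95% counting intervals, the dotted line marks a ratio of 2, and the 11 genes of the run are red. The red genes lie between 1.17 and 4.25, and the genes on either side lie between -0.23 and 0.48 except Fasn at 1.09.

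Other pairs of neighbours were seen on chromosome 10 and beside Emilin2. Mmp11 and Chchd10, a mitochondrial protein (554 against 80.4 CPM, 6.89-fold), are transcribed away from each other from start sites 628 bases apart, and their gene models overlap, so reads were assigned between them without known use of strand. Derl3 and Mif, a cytokine (1312 against 338 CPM, 3.88-fold), lie within 200 kb of Mmp11, and Smarcb1, between Derl3 and Mmp11, was at 1.41-fold. Smchd1, which silences the inactive X chromosome, is the only gene at level within 200 kb of Emilin2 and was 3.43-fold higher (281 against 81.7 CPM). Jak2, near Rcl1, was 5.79-fold higher. Of 40 distinct genes at level within 200 kb of one of the 25 genes of highest ratio, and not among them, 15 (37.5%) were at least 2-fold higher. The share over all genes was 5.86%. This count includes the neighbours of Notum and comes from the same ratios that chose the 25, so it tests nothing. By gene it was uneven: Notum had 11 higher of 18 neighbours at level (some among the 25), Mmp11 3 of 5 and Col13a1 0 of 3.

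A TCF/LEF core was found in few of the upstream windows. Of the 25 genes and Emilin2, 19 had windows in the RefSeq table, 22 in all, and 2 of the 22 (9.09%), those of Col13a1 and Cux2, held one of the cores, against 14.8% of all 32851 windows. GGGCGG was in 15 of the 22 (68.2%) against 32.7% of all windows. A match is a description of letters and no match says nothing of binding elsewhere.

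At E15 no cell met the rule, 0 of 2089 in replicate 1 and 0 of 2647 in replicate 2, which allows shares of up to 0.144% and 0.113%. Emilin2 was at 8.38 and 8.39 CPM in the Col1a2 cells of the E15 libraries, against 6167 and 153 CPM in the Emilin2-rich and other Col1a2 cells at P7. Rarres1 (0 and 5 UMIs) and Kcnk3 (1 UMI in each) were nearly absent at E15, and Chad was at 0.803 and 0.620 CPM. Nkd1 was at 78.5 and 82.3 CPM and Pou3f4 at 450 and 481 CPM. Fabp5 was at 244 and 259 CPM and Col13a1 at 46.6 and 47.4 CPM. Pou3f4 thus had a level like that of P7 mesenchyme already at E15, while Rarres1, Kcnk3 and Chad were nearly absent. Not every gene higher in the Emilin2-rich cells was low at E15: Nnat was at 903 and 1008 CPM, against 516 CPM in the Emilin2-rich cells.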

How the data were processed

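Whole cochleae of wildtype C57BL/6J mice were profiled with the Chromium 3' v3 kit, per the labels, in 1 P7 and 2 E15 libraries. The authors deposited UMI counts, whole numbers that were not normalized, for each barcode. The submitters' processing notes name Cell Ranger 6.1.2 and GRCm38, while the file header of P7 gives software version 3.1.0. The annotation, the rule by which the authors called cells and the use of strand are not given in the sources used here. The lowest total of a barcode was 500 UMIs.

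The counts of each group of cells were summed and scaled to CPM. Ratios carry exact 95% conditional counting intervals, and sums and shares exact Poisson and binomial ones. With 1 P7 library there is no replicate, so no test was made and no p-value is given. A gene is called higher or lower at 50 CPM in either sum and a ratio of 2. The ratio step was tested on simulated data. Doublets were scored with Scrublet in scanpy, whose automatic threshold marked 3 cells, and none were removed. As an alternative the 422 highest scores (an expected rate of 0.008 per 1000 cells) were left out. Clusters used 2000 variable genes without Emilin2, 30 components, 15 neighbours and Leiden resolution 1 (0.5 for the Emilin2-rich cells alone). Tools were Python 3.11.15, numpy 2.4.6, scipy 1.17.1, pandas 2.3.3, scanpy 1.11.5, anndata 0.12.19, scikit-learn 1.9.0, igraph 0.11.9 and matplotlib 3.10.9.

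Named genes are the 25 of highest and 15 of lowest ratio with a UMI in 20% of the cells of the higher group (leaving out Emilin2 and mitochondrial, ribosomal, haemoglobin, sex-linked and unnamed genes), up to 8 members of each of 33 gene lists past a ratio of 2, the markers and unchanged members of families. Some named genes are not reported here. The members and lists were chosen with earlier results of these data known. Sp5, Rnf43, Znrf3, Dkk1, Kdr, Flt1, Irf4, Ptgs2, Mgp, Mif, Chchd10, Smchd1 and Jak2 were named after their values were seen. So were Cthrc1, Cdkn1c, Ccnd1, Tcf7, Tcf7l2, the genes around Notum and those compared between clusters. Alternatives were other thresholds of Emilin2, depth, mitochondrial share, comparison cells and scaling, and a choice of cells on a random part of the UMIs with levels from the remaining part.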

Additional observations from a re-analysis of the deposited data

How the results depend on the processing

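The share of P7 cells that met the rule was 11.6% at an Emilin2 threshold of 0.2%, 6.99% at 0.5%, 7.89% with exclusion-gene cells kept and 11.4% at 5000 UMIs or more. The other settings left it inside its interval. Without a filter on low levels beyond 10 UMIs over both sums, 720 genes were at least 2-fold higher and 3424 lower, of 15694. Under every other setting run, the higher genes numbered 184 to 265 and the lower ones 286 to 330. Of the 194 higher genes 185 were called again when the cells were chosen on 1 part of the UMIs and the levels taken from the rest, and of the 311 lower ones 296. For 163 named genes under 16 settings, no ratio past 2-fold either way changed direction. Of those inside it, Otor went from 1.01 to 0.987 against all other cells and Mbp from 0.910 to 1.12 at 10 Col1a2 UMIs. Of all 2608 ratios, 532 lay outside the counting interval. With the threshold at 0.5%, cells between 0.3 and 0.5% joined the comparison and Rarres1 was 20.8-fold, Kcnk3 13.8-fold and Notum 7.89-fold higher. Id4 was 2.83-fold higher with exclusion-gene cells kept. Without the group of 17 cells led by bone and fibroblast genes, which had the highest median UMI count among the groups, 35 of the 163 ratios moved by over 1.5 times. The run of neighbouring genes that holds Notum had 9 to 11 genes under all settings. Emilin2 at E15 was 8.32 CPM at 10 Col1a2 UMIs, 8.89 CPM as a mean over cells, and 8.38 to 8.39 CPM with either library alone. The clusters held 92.9% of the Emilin2-rich cells at resolution 2 (3 clusters), 95.6% at 0.5 (1 cluster) and 95.6% with Emilin2 kept. The sub-cluster, Emilin2 UMI, run and Emilin2-kept settings were chosen after seeing the data. No paired analysis was possible because P7 is 1 library and no test was made. A single P7 library limits every value: intervals cover counting of UMIs, not animals, and a gene listed near 3 UMIs is not shown to be absent.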

Other observations

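Rarres1 at 0.3% of UMIs or more, a level that 160 Emilin2-rich cells reached, was also found in 15 P7 cells outside the rule. All 15 had at least 3 Col1a2 UMIs, 11 had Otos at 1% or more and 10 had no Emilin2 UMI. Their summed levels were 33478 CPM for Otor, 24883 CPM for Otos, 4798 CPM for Cthrc1 (565 CPM in the rest) and 332 CPM for Chad, with Notum at 147 CPM and Kcnk3 at 133 CPM, the latter in 13.3% of the cells. Rarres1 alone therefore did not single out the Emilin2-rich cells at P7. These cells were picked after their values were seen, and their median depth was 7960 UMIs.

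The cell cycle inhibitor Cdkn1a was 2.70-fold higher in the Emilin2-rich cells (1221 against 452 CPM, with 19.3 and 25.7 CPM in the E15 libraries), and Cdkn1c, another one, was at 490 against 771 CPM. Ccnd1, a cyclin, was at 6.42 against 36.3 CPM. Tcf7, a DNA-binding partner of beta-catenin, was at 49.5 against 25.1 CPM, and Tcf7l2 at 36.5 against 39.7 CPM. The growth factor genes split: Igfbp6 was 3.19-fold higher and Fgfr2 2.15-fold higher, and 6 of 11 IGF and FGF genes at level were lower, Igfbp7 by 23.4-fold and Igf2 by 8.98-fold.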
